A study of Mus musculus with 6 samples.

Results

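Mitochondrial ribosomal protein genes were compared between MLL-AF9 leukemias whose cells came from donor mice that lacked the nuclear receptor PPARA and those from donors that carried it. The set comprised every gene with a Mrpl or Mrps symbol followed by a digit, pseudogenes left out, that had a probe set of its own, and it held 75 of the 30743 named genes on the array. The symbols are the current ones, and by the platform's own symbols the same rule found 74, without Mrpl58. Mrpl30, Mrpl53 and Mrps6 were named only by rows that also name other genes and were left out, as were 4 pseudogenes. No filter on dim signals was set, so all 75 entered the test. Affymetrix arrays had been run on RNA of leukemia cells that were isolated by their GFP signal from marrow of mice at the second round of transplantation. Each genotype, Ppara-/- and Ppara+/+, had 3 arrays. Donor mice of both genotypes came from The Jackson Laboratory and had been backcrossed for 10 generations, on a strain that the labels do not name. Cells of both groups carried the retrovirus MSCV-MLL-AF9-IRES-GFP, in which a leukemia fusion gene is driven by the viral promoter together with green fluorescent protein (GFP). The age of the mice is not given in the labels, nor whether replicates came from separate primary leukemias, so the spread behind every p-value may be technical.

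Mitochondria have ribosomes of their own, which are built from RNA of the mitochondrial genome and from proteins that nuclear genes encode and that are imported from the cytosol. They translate only the proteins of the mitochondrial genome, which are core subunits of the respiratory chain and of ATP synthase. Some of their proteins descend from bacterial ribosomal proteins and others have no counterpart among those. Acute myeloid leukemia cells depend in many settings on mitochondrial translation, and PPARA is known as a fatty acid sensor that switches on genes of fatty acid oxidation.

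The deposited values are log2 signals, so that a difference of 1 is a 2-fold ratio of signal. On the 6 arrays all named genes had a median of 5.16 to 5.40, and the median of 5222 negative-control probe sets lay between 4.63 and 5.16, highest on Ppara+/+ replicate 1. All 75 member genes were above the negative-control median of every array, and 6 (8.0%) had a mean above the controls' 95th percentile of 8.09, as did 12.7% of all genes. Ppara itself gave 5.29, 5.05 and 5.23 in Ppara-/- cells, against 4.87, 5.19 and 5.18 in Ppara+/+ cells. These values overlapped and were near those of the negative controls. Without the probes' position in Ppara they are no check of the genotype. Of the markers of the labelled leukemia, 12 of 12 were measured and their mean was 9.61 ± 0.14 in Ppara-/- and 9.52 ± 0.22 in Ppara+/+ cells (SD, n = 3). None of the 12 passed, 4 had an unadjusted p under 0.05, and 3, Csf3r, Kit and Hoxa10, were higher on every Ppara-/- array while 1 was lower on every one. Of all genes 5.74% had an unadjusted p under 0.05, 5.11% were higher on every Ppara-/- array and 3.62% lower. The 12 differences, 6 negative and 6 positive, ran from -0.87 to 0.58 with a median of 0.02. The mean of 6 T cell markers was 4.43 ± 0.07 in Ppara-/- and 4.37 ± 0.13 in Ppara+/+ cells. Markers of B, NK, erythroid, megakaryocyte and stromal cells had means of 4.11 to 5.94 in Ppara-/- and 4.05 to 5.83 in Ppara+/+ cells. None of their genes passed the test described below. Single genes were well above these means, such as Pecam1 of the stromal list at 8.83 and 8.55. Cd79b of the B cell list, at 7.50 and 7.89, was lower on every Ppara-/- array (limma unadjusted p = 0.0147). No other gene of these lists was separated or under 0.05. The 8 monocyte and macrophage markers averaged 6.98 ± 0.20 in Ppara-/- and 7.68 ± 0.18 in Ppara+/+ cells, and 1 of them, Clec4a1, fell by 2.08 (limma adjusted p = 0.0101). Of these 8 markers 5 were lower on every Ppara-/- array and 5 had an unadjusted p under 0.05, and the list's median difference was -0.695. The 11 measured proliferation genes averaged 8.93 ± 0.35 in Ppara-/- and 9.04 ± 0.17 in Ppara+/+ cells, and none passed. Of their differences 9 were negative and 2 positive, 81.8% negative against 41.8% over all genes, with a median of -0.16. The part of these lists in the values of the mitochondrial ribosomal proteins was not tested. In bulk samples like these, fewer cells of a type and less RNA per cell cannot be told apart.

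No mitochondrial ribosomal protein gene passed the test between the genotypes. With limma, adjusted by Benjamini-Hochberg over every named gene, 0 of the 75 members had an adjusted p under 0.05, higher or lower in Ppara-/- cells. Of all genes 0.117% did, 0.0585% higher and 0.0585% lower, and the smallest adjusted p of a member was 0.737. The 10 members closest to the threshold were all of the large subunit, which holds 49 of the 75, with Mrpl35, Mrpl18 and Mrpl16 first. Without adjustment 1 member, Mrpl35, was under 0.05, which is 1.33% of the set, against 5.74% of all genes. The log2 differences of the members, Ppara-/- minus Ppara+/+, ran from -0.34 for Mrpl35 and Mrpl34 to 0.23 for Mrpl14, which are signal ratios of 0.792 and 1.17. Their median was -0.01, against 0.02 over all genes. Of the 75 differences 42 were negative (56.0%), against 41.8% over all genes.

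The errors show how precisely the difference of a single gene was measured. The moderated standard error of a member's difference had a median of 0.12, with a range of 0.09 to 0.19. The 95% interval of the difference lay within 0.5 of 0, a ratio of 1.41 either way, for 64 of the 75 members, and within 1 for all 75. The other 11 reached past 0.5 on 1 side: 9 on the negative side, Mrpl34 farthest at -0.75, and Mrpl14 and Mrps12 on the positive side, Mrps12 up to 0.58. Differences inside these limits were not resolved, and an adjusted p near 1 does not show that the levels were equal. The intervals hold for 1 gene at a time, and passing after adjustment over all named genes asks for more. That of Mrpl35, -0.62 to -0.06, left out 0, yet its limma adjusted p was 0.737. The count of 0 members passed is thus no limit on the size of the differences.

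**Figure D1:**
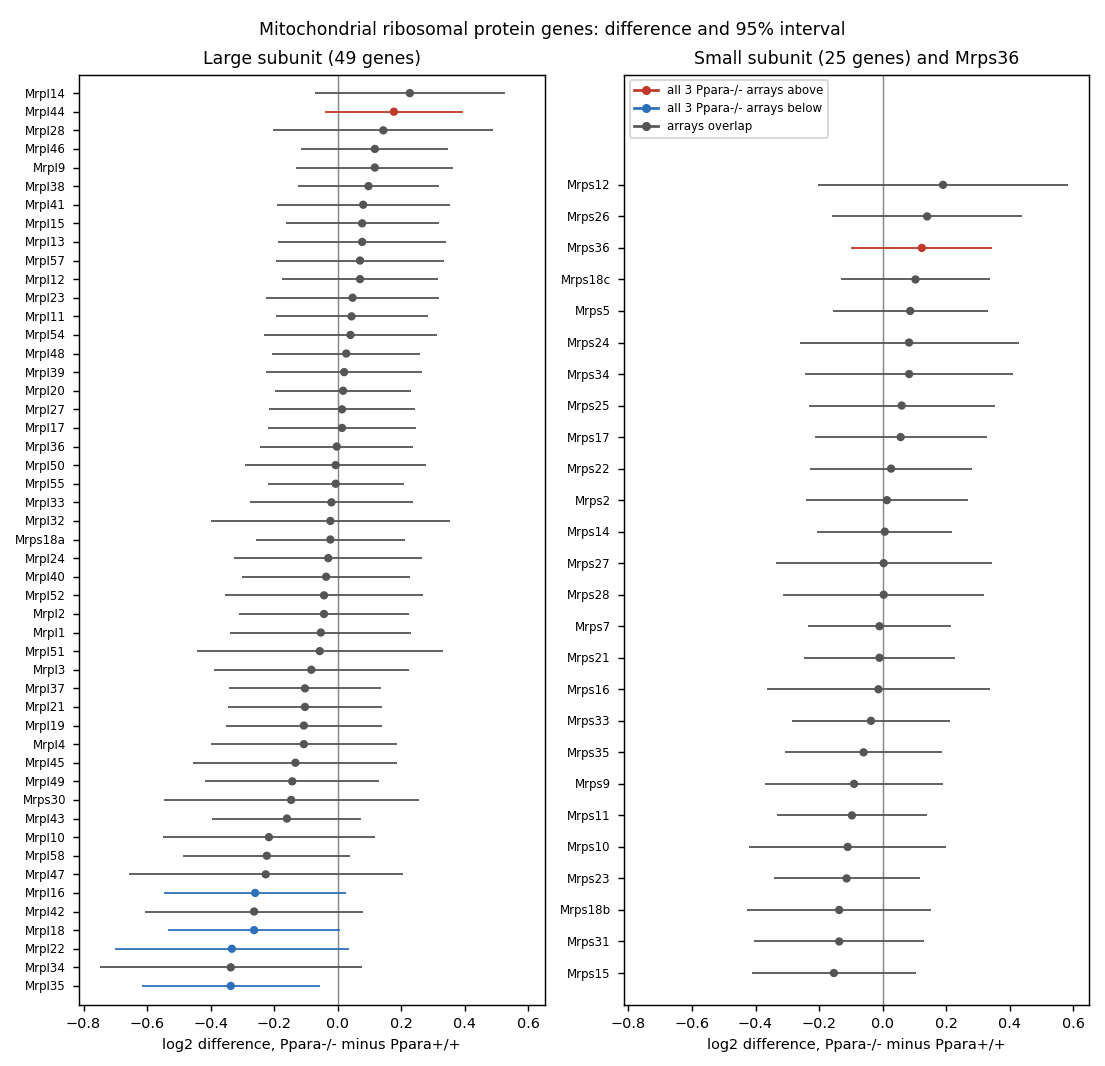
Log2 difference between Ppara-/- and Ppara+/+ leukemia cells (x axis, log2 units) for each of the 75 mitochondrial ribosomal protein genes, with large-subunit genes on the left and small-subunit genes with Mrps36 on the right. Points are differences of the means of 3 arrays each and lines are limma's 95% intervals. The interval of Mrpl35 is the only one that does not cross 0.

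In 6 members the 3 arrays of one genotype all lay on one side of the other 3. Mrpl35, Mrpl18, Mrpl16 and Mrpl22 were lower on every Ppara-/- array (5.33% of the set, against 3.62% of all genes), and Mrpl44 and Mrps36 were higher on every Ppara-/- array (2.67% of the set, against 5.11% of all genes). Mrpl35, a large-subunit protein with a bacterial counterpart, had log2 signals of 5.71, 5.78 and 5.54 in Ppara-/- cells, against 6.21, 5.92 and 5.91 in Ppara+/+ cells. The Ppara+/+ replicate 1 array was the highest of the 6, and the groups did not overlap. Its difference was -0.34 (SE 0.12, 95% interval -0.62 to -0.06) with an unadjusted p of 0.024 and an adjusted p of 0.737 in limma.

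Mrpl18, a protein of the family that binds ribosomal 5S RNA in bacteria, was at 7.66, 7.82 and 7.49 in Ppara-/- cells, against 8.04, 7.84 and 7.88 in Ppara+/+ cells. The lowest Ppara+/+ array was just above the highest Ppara-/- array, and the difference of -0.26 (SE 0.12) had an adjusted p of 0.90 in limma. Mrpl16, which in bacteria lies by the peptidyl transferase centre, was at 6.52, 6.59 and 6.47 in Ppara-/- cells, against 7.03, 6.68 and 6.65 in Ppara+/+ cells. Again Ppara+/+ replicate 1 was the highest array, and the other 5 lay close together. Mrpl22, whose bacterial counterpart lines the exit tunnel of the nascent protein, was at 6.25, 6.06 and 6.09 in Ppara-/- cells, against 6.84, 6.29 and 6.27 in Ppara+/+ cells. For Mrpl22, too, Ppara+/+ replicate 1 stood above the rest, and the other arrays of the genotypes nearly met. The differences were -0.26 (SE 0.13) for Mrpl16 and -0.33 (SE 0.16) for Mrpl22, both with an adjusted p of 0.94 in limma. In all 4 genes the highest array was Ppara+/+ replicate 1, which also had the highest negative-control signal. Without it the differences were -0.24 for Mrpl35, -0.20 for Mrpl18, -0.14 for Mrpl16 and -0.15 for Mrpl22, so those of Mrpl16 and Mrpl22 were smaller by over 1.5 times.

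Mrpl44 and Mrps36 were the opposite cases. Mrpl44, a large-subunit protein whose human mutations cause a respiratory chain deficiency with cardiomyopathy, was at 6.44, 6.38 and 6.38 in Ppara-/- cells, against 6.30, 6.19 and 6.18 in Ppara+/+ cells. The difference of 0.18 (SE 0.10) did not pass (limma adjusted p = 0.996). Mrps36, named as a ribosomal protein but now known as a part of the 2-oxoglutarate dehydrogenase complex, was at 6.03, 6.10 and 6.08 in Ppara-/- cells, against 6.02, 5.86 and 5.96 in Ppara+/+ cells. The groups nearly met, and the difference was 0.12 (SE 0.10, limma adjusted p = 0.997).

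**Figure D2:**
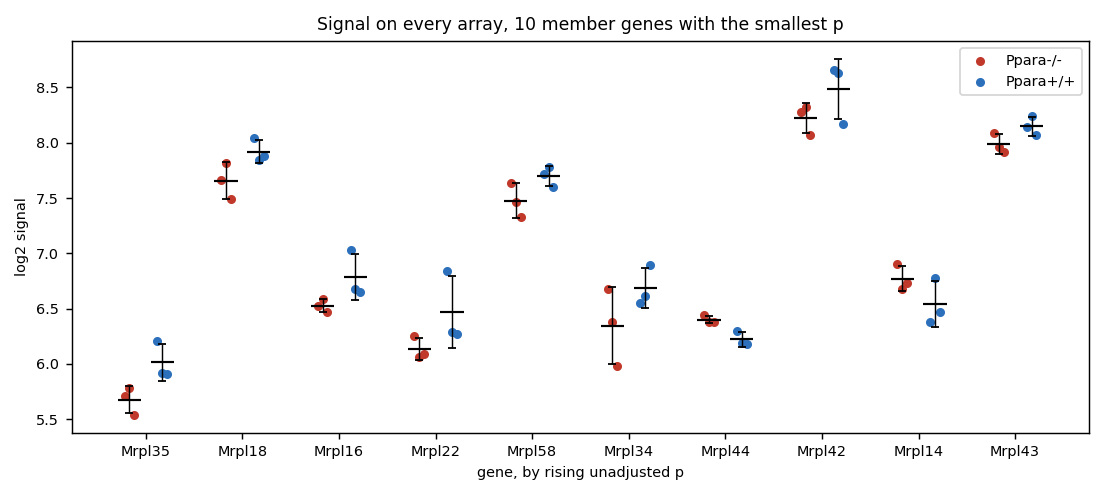
Log2 signal (y axis) on each array for the 10 member genes with the smallest unadjusted p, with Ppara-/- arrays in red on the left and Ppara+/+ arrays in blue on the right of each pair. Bars are the mean and SD of 3 arrays. The groups do not touch for Mrpl35, Mrpl18, Mrpl16, Mrpl22 and Mrpl44, and they overlap for the other 5.

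The remaining genes among the 10 with the smallest p overlapped between genotypes. Mrpl58, a peptidyl-tRNA hydrolase built into the ribosome that frees stalled complexes, was at 7.64, 7.46 and 7.33 in Ppara-/- cells, against 7.72, 7.78 and 7.60 in Ppara+/+ cells (difference -0.22, SE 0.12). Mrpl34 was at 6.68, 6.38 and 5.98 in Ppara-/- cells, against 6.55, 6.61 and 6.89 in Ppara+/+ cells (difference -0.34, SE 0.18). Of its 6 arrays the lowest was Ppara-/- replicate 3 and the highest Ppara+/+ replicate 3. The difference was -0.15 without Ppara-/- replicate 3 and -0.50 without Ppara-/- replicate 1, so its place at the low end of the set rests on single arrays. Mrpl42 was at 8.28, 8.32 and 8.07 in Ppara-/- cells, against 8.66, 8.63 and 8.17 in Ppara+/+ cells (difference -0.26, and -0.42 without Ppara+/+ replicate 3). Mrpl14 was at 6.90, 6.68 and 6.73 in Ppara-/- cells, against 6.38, 6.78 and 6.47 in Ppara+/+ cells, the highest difference of the set over all 6 arrays. It was 0.145 without Ppara+/+ replicate 1 and 0.34 without Ppara+/+ replicate 2. Mrps12 was above it without Ppara-/- replicate 2 (0.29 against 0.27) and without Ppara+/+ replicate 3 (0.26 against 0.19). Mrpl44 was above it without Ppara+/+ replicate 1 (0.215 against 0.145). Mrpl43 was at 8.09, 7.96 and 7.92 in Ppara-/- cells, against 8.14, 8.24 and 8.07 in Ppara+/+ cells. The limma adjusted p of these 5 lay between 0.98 and 0.997.

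The promoters of the 6 separated genes are given here because they are the members in which the genotypes did not overlap. They show which of the exact strings named below the start regions hold. Other forms of the same motifs were not searched and may be present in a window without a match. Each window runs from 250 bases before to 50 bases after the gene's start, 5′ to 3′ in the direction of the gene, from RefSeq on mouse build GRCm38.p6. Capitals mark exact matches on either strand to GCGCATG (NRF1, a factor of genes for mitochondrial proteins), CCGGAAG (ETS factors, among them the mitochondrial biogenesis factor GABPA), ATGGCGGC (YY1), GGGCGGG (SP1) and AGGTCA (a single nuclear receptor site).
Mrpl35 (chr6:71823735-71824034, minus strand): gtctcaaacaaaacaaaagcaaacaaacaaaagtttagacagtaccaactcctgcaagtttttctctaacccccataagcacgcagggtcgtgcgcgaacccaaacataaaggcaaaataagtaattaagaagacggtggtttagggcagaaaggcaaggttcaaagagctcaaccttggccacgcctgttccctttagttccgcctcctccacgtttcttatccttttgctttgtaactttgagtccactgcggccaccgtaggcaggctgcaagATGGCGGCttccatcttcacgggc
Mrpl18 (chr17:12916042-12916341, minus strand): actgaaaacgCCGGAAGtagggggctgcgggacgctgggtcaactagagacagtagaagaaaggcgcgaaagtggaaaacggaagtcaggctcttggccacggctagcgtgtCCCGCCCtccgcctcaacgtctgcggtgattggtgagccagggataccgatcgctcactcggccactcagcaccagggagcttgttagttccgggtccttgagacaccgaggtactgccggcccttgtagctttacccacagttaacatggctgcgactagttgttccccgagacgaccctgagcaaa
Mrpl16 (chr19:11770165-11770464, plus strand): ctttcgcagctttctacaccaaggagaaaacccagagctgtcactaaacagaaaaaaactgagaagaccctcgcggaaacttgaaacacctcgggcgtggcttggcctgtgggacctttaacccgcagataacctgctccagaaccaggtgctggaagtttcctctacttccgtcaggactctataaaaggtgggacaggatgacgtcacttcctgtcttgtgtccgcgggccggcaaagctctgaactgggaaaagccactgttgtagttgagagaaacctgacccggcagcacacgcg
Mrpl22 (chr11:58171414-58171713, plus strand): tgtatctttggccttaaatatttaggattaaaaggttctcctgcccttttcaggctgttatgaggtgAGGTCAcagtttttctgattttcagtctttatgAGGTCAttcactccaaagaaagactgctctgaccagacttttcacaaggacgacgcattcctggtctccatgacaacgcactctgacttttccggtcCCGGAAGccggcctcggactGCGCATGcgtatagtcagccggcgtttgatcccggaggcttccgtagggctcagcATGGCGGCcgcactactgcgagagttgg
Mrpl44 (chr1:79775768-79776067, plus strand): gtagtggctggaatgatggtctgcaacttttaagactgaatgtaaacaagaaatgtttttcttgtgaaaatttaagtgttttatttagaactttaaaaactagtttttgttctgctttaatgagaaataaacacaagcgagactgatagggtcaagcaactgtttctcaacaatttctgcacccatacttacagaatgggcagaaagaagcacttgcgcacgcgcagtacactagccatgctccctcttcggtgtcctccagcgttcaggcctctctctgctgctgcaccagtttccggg
Mrps36 (chr13:100744610-100744909, minus strand): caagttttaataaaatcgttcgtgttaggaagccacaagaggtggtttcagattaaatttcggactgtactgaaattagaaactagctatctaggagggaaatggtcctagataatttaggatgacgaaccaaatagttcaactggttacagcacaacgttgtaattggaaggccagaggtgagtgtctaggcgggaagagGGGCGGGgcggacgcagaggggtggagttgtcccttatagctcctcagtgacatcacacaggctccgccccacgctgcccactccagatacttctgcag

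The window of Mrpl22 held 1 NRF1, 1 ETS and 1 YY1 match and 2 single nuclear receptor matches. That of Mrpl35 held 1 YY1 match, that of Mrpl18 an ETS and an SP1 match and that of Mrps36 an SP1 match, while those of Mrpl16 and Mrpl44 held none of these letters. Among the 4 genes that were lower on every Ppara-/- array, no motif was present in all 4. A match is a string of letters and not evidence of binding, and a window without one says only that these letters are not in it.

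The motif letters were then counted over the whole set. RefSeq windows were matched for 66 of the 75 members by symbol. ETS letters were found in 25 of the 66 (37.9%), against 12.95% of 17492 protein-coding genes and 9.93% of 27025 genes of any kind with a window. YY1 letters were found in 11 (16.7%), against 3.50% of protein-coding and 2.60% of all genes, and NRF1 letters in 8 (12.1%), against 5.40% and 4.41%. SP1 letters were found in 28 (42.4%), against 36.87% and 27.90%. Matches of different motifs may overlap, and a gene with several windows was counted once. The direct repeat bound by PPAR with its partner RXR was searched as AGGTCA in 2 copies with any 1 base between. It was found in 0 of the 66 member genes and in 0.06% of protein-coding genes. A string this rare is likely to be missing from any 66 genes, so the count of 0 cannot tell whether members have PPAR sites. The single site AGGTCA was found in 10 (15.2%), against 16.70% of protein-coding and 18.13% of all genes. The 35 members with NRF1, ETS or YY1 letters had a median difference of -0.02 and the 31 without them one of -0.0033, so both medians were near 0.

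**Figure D3:**
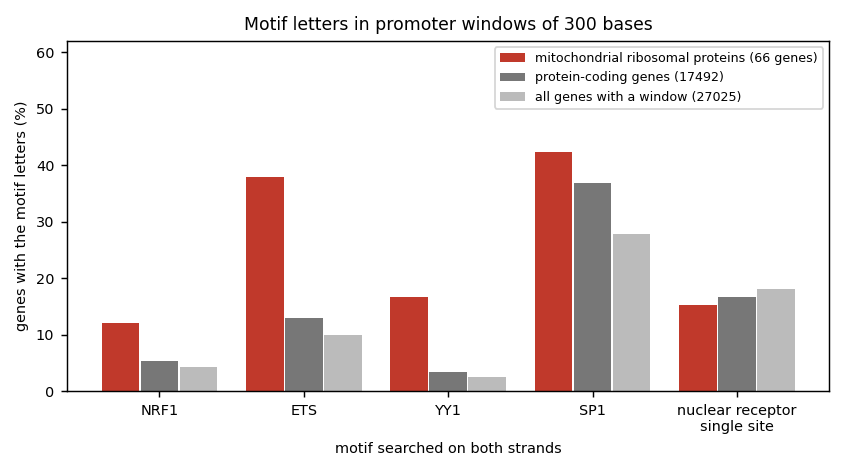
Share of genes (y axis, percent) whose promoter window of 300 bases holds the motif letters named on the x axis, for mitochondrial ribosomal protein genes, protein-coding genes and all genes with a window. The share with ETS letters is 37.9% in the first group and 12.95% among protein-coding genes, while the nuclear receptor single site is at 15.2% and 16.70%.

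By role, the 49 measured genes of the large subunit had a median difference of -0.02, with 30 negative and 19 positive. The 25 genes of the small subunit had a median of 0.0033, with 12 negative and 13 positive. Large-subunit means per array averaged 6.91 ± 0.06 in Ppara-/- and 6.96 ± 0.07 in Ppara+/+ cells (SD, n = 3), and small-subunit means averaged 7.06 ± 0.07 and 7.06 ± 0.05. The differences of the small subunit lay between -0.15 (Mrps15) and 0.19 (Mrps12), and no small-subunit gene had an unadjusted p under 0.05 in limma. All 6 members whose difference exceeded 0.25 in size were of the large subunit, which holds 49 of the 75 members. Of all 30743 genes 3480 exceeded that size. Without Ppara+/+ replicate 1 the difference was -0.40 for Mrpl34. Those of Mrpl35, Mrpl18, Mrpl42, Mrpl22 and Mrpl16 then lay between -0.24 and -0.14, so under 0.25 in size. The difference between the subunits was not tested. The 46 genes listed with a bacterial ribosomal counterpart had a median of -0.01 and the 28 listed without one had a median of -0.02.

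Other members with a known part in disease or in the work of the ribosome overlapped between the genotypes and did not pass the test. Mrpl12, which forms the flexible stalk that recruits translation factors and has been reported to bind mitochondrial RNA polymerase, was at 7.40, 7.19 and 7.17 in Ppara-/- cells, against 7.16, 7.26 and 7.13 in Ppara+/+ cells (difference 0.07, SE 0.11). Mrps12, a protein of the decoding centre, was at 7.74, 7.41 and 7.69 in Ppara-/- cells, against 7.05, 7.66 and 7.56 in Ppara+/+ cells. Its low Ppara+/+ value came from replicate 1, and the difference was 0.19 (SE 0.17), the highest of the small subunit over all 6 arrays. Without that array it was 0.0033, and without Ppara-/- replicate 2 or Ppara+/+ replicate 2 it was 0.29 or 0.31.

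Human mutations of MRPL3, MRPS16, MRPS22 and MRPS34 cause combined respiratory chain deficiency. Mrpl3 averaged 7.05 ± 0.10 in Ppara-/- and 7.13 ± 0.23 in Ppara+/+ cells (SD, n = 3), Mrps16 8.16 ± 0.17 and 8.18 ± 0.27. Mrps22 averaged 6.38 ± 0.04 in Ppara-/- and 6.35 ± 0.16 in Ppara+/+ cells, and Mrps34 7.30 ± 0.24 and 7.21 ± 0.15. Each of these 4 differences was smaller than the SD of at least 1 genotype. The differences nearest to 0 were those of Mrpl36 at -0.0033 (SE 0.11) and of Mrps28 and Mrps27 at 0.0033 (SE 0.14 and 0.15).

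The paralogs Mrps18a, Mrps18b and Mrps18c, which descend from 1 bacterial protein and sit at different places of the ribosome, did not pass the test. Mrps18a, which in mammals is part of the large subunit, averaged 6.38 ± 0.05 in Ppara-/- and 6.41 ± 0.11 in Ppara+/+ cells (SD, n = 3). Mrps18b averaged 7.41 ± 0.14 in Ppara-/- and 7.54 ± 0.18 in Ppara+/+ cells, and Mrps18c averaged 6.14 ± 0.05 and 6.04 ± 0.11. Their differences were -0.02, -0.14 and 0.10, with limma adjusted p of 0.997 for each. Mrps30, a large-subunit protein in spite of its name, was at 6.52, 6.75 and 6.71 in Ppara-/- cells, against 7.21, 6.51 and 6.70 in Ppara+/+ cells, again with its highest value on Ppara+/+ replicate 1. Without that array the sign turned for Mrps30 (0.055), Mrpl3 (0.035) and Mrps18a (0.018).

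Mitoribosome subunits that have another kind of symbol were outside the set, and 4 of 5 were measured. All 4 had positive differences, and none passed. Dap3, a GTP-binding protein of the small subunit, was at 7.80, 7.69 and 7.87 in Ppara-/- cells, against 7.66, 7.68 and 7.64 in Ppara+/+ cells (difference 0.13, SE 0.10, limma adjusted p = 0.997). Every Ppara-/- array of Dap3 was above every Ppara+/+ array, though the nearest values almost met. Chchd1 had a difference of 0.27 (SE 0.13, limma adjusted p = 0.956), Gadd45gip1 one of 0.14 (SE 0.15) and Ptcd3 one of 0.03 (SE 0.19).

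How the members varied across arrays was described by each gene's deviation from its own mean over the 6 arrays. The median deviation of the 75 members was 0.04 on Ppara-/- replicate 1, -0.01 on replicate 2 and -0.07 on replicate 3, against 0.07, 0.03 and -0.04 on the 3 Ppara+/+ arrays. The ranges of the genotypes overlapped. Ppara+/+ replicate 1 was the highest array for 30 members and the lowest for 11, so that 54.7% of members had an extreme there, as did 60.2% of all genes. Ppara-/- replicate 3 was the lowest for 31 members and the highest for 6, which makes 49.3%, against 34.4% of all genes. Deviations were most spread on these arrays, with an SD over members of 0.15 (Ppara-/- replicate 3) and 0.21 (Ppara+/+ replicate 1), against 0.09 to 0.11 on the other 4. The negative-control medians of these arrays were 4.65 and 5.16, and the part of background signal in the deviations was not tested.

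**Figure D4:**
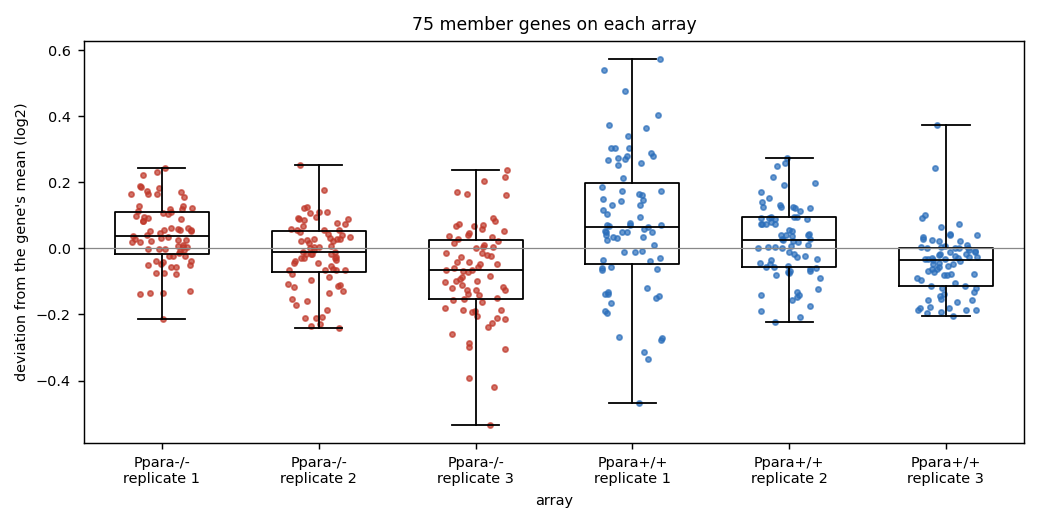
Deviation of each of the 75 member genes from its own mean over the 6 arrays (y axis, log2 units) on each array (x axis), with Ppara-/- arrays in red and Ppara+/+ arrays in blue. Boxes give the median and quartiles and whiskers the full range. The spread is widest on Ppara+/+ replicate 1 (SD 0.21) and the median lowest on Ppara-/- replicate 3 (-0.07).

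Across the 6 arrays a member had a median SD of 0.13, against 0.15 for all genes. The first principal component of the members held 56.6% of their variance and had its ends at Ppara-/- replicate 3 (-1.06) and Ppara+/+ replicate 1 (1.84), with the other 4 arrays between -0.45 and 0.30. The remaining arrays of both genotypes were mixed along it. Without Ppara+/+ replicate 1 the member median was 0.0050, and without Ppara+/+ replicate 3 it was -0.04. With array weights estimated by limma, 25 members had a negative difference in place of 42 and the large-subunit median was 0.030.

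Genes that work with the mitochondrial ribosome were taken from lists of translation factors, assembly factors, tRNA synthetases and factors of mitochondrial DNA and RNA. Among 14 translation factors 0 passed, with 5 negative and 8 positive differences, 1 of 0 and a median of 0.015. Oxa1l, which inserts newly made proteins into the inner membrane, was at 8.62, 8.71 and 8.48 in Ppara-/- cells, against 9.10, 8.74 and 8.94 in Ppara+/+ cells (difference -0.32, SE 0.12, limma adjusted p = 0.784). Its arrays did not overlap between the genotypes.

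Among 25 assembly and rRNA modification factors 0 passed, with 16 negative and 9 positive differences and a median of -0.04. Mpv17l2, an inner membrane protein needed for ribosome assembly, was at 7.36, 7.40 and 7.19 in Ppara-/- cells, against 7.81, 7.52 and 7.62 in Ppara+/+ cells (difference -0.33, SE 0.12, limma adjusted p = 0.685). The rRNA methyltransferase genes Nsun4 and Tfb1m had differences of -0.20 (SE 0.11) and -0.28 (SE 0.17).

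Among 21 tRNA synthetases and related enzymes 0 passed, with 8 negative and 13 positive differences and a median of 0.05. Cars2, the mitochondrial cysteinyl-tRNA synthetase, was at 8.37, 8.22 and 8.38 in Ppara-/- cells, against 7.98, 7.96 and 7.93 in Ppara+/+ cells (difference 0.37, SE 0.10, limma adjusted p = 0.397). Every Ppara-/- array was above every Ppara+/+ array. Gatc, a subunit of the enzyme that makes glutaminyl-tRNA in mitochondria, was at 8.10, 8.61 and 7.70 in Ppara-/- cells, against 9.33, 8.58 and 8.84 in Ppara+/+ cells. These groups overlapped, and the difference of -0.78 (SE 0.25) had a limma adjusted p of 0.601.

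Among 18 factors of mitochondrial DNA and RNA 0 passed, with 13 negative differences and a median of -0.07. Polg, the mitochondrial DNA polymerase, was at 7.52, 7.50 and 7.50 in Ppara-/- cells, against 7.31, 7.42 and 7.36 in Ppara+/+ cells (difference 0.14, SE 0.09, limma adjusted p = 0.997), with no overlap between the genotypes. Of 12 measured regulators of mitochondrial gene expression, among them Nrf1, Gabpa, Yy1, Myc and the PGC-1 family, 0 passed, and the median difference was 0.01. The 12 include Ppara itself (difference 0.11), whose signal was near the negative controls.

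Transcripts of the mitochondrial genome are the templates that these ribosomes read, and 5 of the 13 protein-coding ones had a probe set of their own. All 5 had positive differences, with a median of 0.25, and none passed. Over all genes 41.8% of differences were negative. COX2 had the lowest signal of the 5, at 6.07 in Ppara-/- and 5.92 in Ppara+/+ cells, far below COX1, ND2 and ND3. ND3, a subunit of complex I, averaged 11.68 ± 0.29 in Ppara-/- and 11.22 ± 0.47 in Ppara+/+ cells (SD, n = 3; difference 0.46, SE 0.24, limma adjusted p = 0.974). COX1, a core subunit of cytochrome oxidase, was at 11.60, 11.56 and 12.16 in Ppara-/- cells, against 11.56, 11.78 and 10.97 in Ppara+/+ cells. Ppara-/- replicate 3 was the highest array and Ppara+/+ replicate 3 the lowest for both, and also for ND2 and COX2, while the arrays of the genotypes overlapped. ND6 had a difference of 0.19 (SE 0.32).

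The mitochondrial ribosomal proteins were set beside the cytosolic ribosomal proteins and the subunits of the respiratory chain and ATP synthase. The 30 cytosolic ribosomal protein genes with a probe set of their own had a median difference of -0.02, with 18 negative, and 85 respiratory chain and ATP synthase genes had a median of -0.06, with 60 negative (70.6%). None of either group passed, and limma's unadjusted p was under 0.05 for 1 and 4 of them, against 1 of the 75 mitochondrial ribosomal protein genes. Means over the respiratory chain genes were 7.69 ± 0.08 in Ppara-/- and 7.77 ± 0.03 in Ppara+/+ cells, and means over the mitochondrial ribosomal protein genes were 6.95 ± 0.06 and 6.98 ± 0.06 (SD, n = 3). The differences between these groups of genes were not tested.

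**Figure D5:**
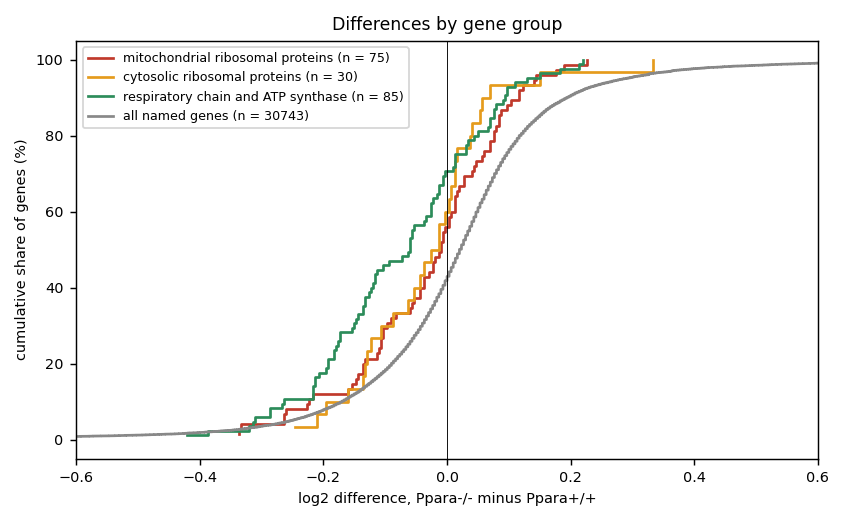
Cumulative share of genes (y axis, percent) by log2 difference between Ppara-/- and Ppara+/+ cells (x axis, shown from -0.6 to 0.6) for mitochondrial ribosomal proteins, cytosolic ribosomal proteins, respiratory chain and ATP synthase subunits, and all named genes. The share of differences under 0 is 56.0% for the first group, 60.0% for the second, 70.6% for the third and 41.8% for all genes.

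Many member genes share their start region with a neighbour. A protein-coding gene that starts on the other strand within 500 bases upstream was found for 20 of the 66 members with a RefSeq window (30.3%), against 7.5% of protein-coding genes. All 20 neighbours were measured, 13 had a negative difference, and 0 passed. Mrps12 lies 147 bases from Sars2, the mitochondrial seryl-tRNA synthetase, and their differences were 0.19 and 0.08. Mrpl43 lies 116 bases from Twnk, the helicase of mitochondrial DNA (-0.16 and -0.02), and Mrpl46 lies 42 bases from Mrps11, another member (0.12 and -0.10). Mrpl18 lies 238 bases from Tcp1, a subunit of the cytosolic chaperonin (-0.26 and -0.33), and Mrpl14 lies 131 bases from Tmem63b (0.23 and 0.41). Tmem63b was the 1 neighbour with an unadjusted p under 0.05, and its limma adjusted p was 0.499. Mrpl18, Mrpl14, Mrpl46 and their neighbours were singled out after their values were seen.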

How the data were processed

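Affymetrix arrays of 3 Ppara-/- and 3 Ppara+/+ samples of sorted leukemia cells were grouped by their titles. The authors deposited a log2 signal for each probe set. Per the submitters' processing notes the tools were RMA, a background correction with quantile normalization and a summary over probes, and limma. Quantile normalization removes a shift that most genes share. Their versions, other settings and the genome build were not given in the sources used here, and since the probe set identifiers differ in form from those of the model in the design text, the array model is uncertain.

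Of 72688 rows, 6732 were controls, 31216 were paired with 1 gene by the platform annotation, 1534 with several (left out, among them 4 rows that name a mitochondrial ribosomal protein gene) and 33206 were unnamed here. Several names of 1 gene ID counted as 1 gene, and symbols were brought up to date by gene ID from RefSeq (GRCm38.p6). Genes were tested through the probe set whose mean over all 6 arrays was highest, without a filter on dim signals, and every member had 1. All 30743 genes were fitted without covariates by lmFit and eBayes (limma 3.58.1, R 4.3.3) and adjusted by Benjamini-Hochberg, two-sided, and all p-values and intervals are from this fit. The fit was also run on simulated data with independent noise for every gene and array. That run does not cover deviations that many genes share on 1 array. Python 3.11.15 with pandas 2.3.3 made the tables, and matplotlib 3.10.9 the plots.

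The members and lists were chosen with earlier results of these data known. Named were the members past the threshold, the 10 with the smallest p, 13 chosen by role, the 2 with the largest and those with the smallest differences, and up to 3 genes per related list. Alternatives were a replicate block, 2 other normalizations, the mean of all probe sets, array weights, a trended and robust prior, a filter on dim genes, the negative-control signal as a covariate, each array left out in turn and Ppara-/- replicate 2 and Ppara+/+ replicate 1, highest in negative-control signal, left out together. Medians over lists are descriptions, with no set test. The number of arrays limits the precision.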

Additional observations from a re-analysis of the deposited data

How the results depend on the processing

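No member passed an adjusted p of 0.05 in limma under any of 15 alternatives, where 0 to 4 members had an unadjusted p under 0.05 and the smallest adjusted p was 0.225, with array weights. Deviations from the genotype mean correlated at -0.33, -0.47 and 0.11 for same-numbered arrays and at -0.32 to 0.50 for the others. With 3 arrays per genotype these correlations cannot decide whether the replicate numbers pair the arrays. With the replicate block 0 members were called, 42 differences were negative and 12 genes of the whole table passed in place of 36. That whole-table count was 277 with array weights, 69 with the trended and robust prior, 37 with the mean of all probe sets, 30 with the covariate, 22 with quantile normalization, 13 with centring, 1 with the filter on dim genes, 0 without both high-background arrays and 6 to 36 with 1 array left out (6 without Ppara-/- replicate 1). Array weights gave 25 negative members and a large-subunit median of 0.030. The filter on dim genes kept 6 members, 4 of them negative. With 1 array left out the count of members called was 0, the count of negative members 34 to 48, the member median -0.04 to 0.0050, the large-subunit median -0.06 to 0.0033 and the small-subunit median -0.048 to 0.020. Centring put the median over all genes at 0.00 in place of 0.02 and that of the members at -0.03. Of 338 values of 24 named members under alternatives, 307 kept their sign and 31 changed it, none of them past the threshold and all at most 0.11 in size, and the cause was not tested. Mrps28 gave -0.017 with centring, -0.085 with the covariate, -0.11 to 0.12 with 1 array left out. Mrps27 gave -0.017 with centring, -0.073 to 0.16 with 1 array left out. Mrps16 gave 0.0083 with quantile normalization, 0.0091 with array weights, -0.15 to 0.11 with 1 array left out. Mrpl36 gave 0.0022 with quantile normalization, 0.055 with array weights, 0.040 with both high-background arrays out, -0.082 to 0.043 with 1 array left out. Mrpl3 gave 0.060 with array weights, 0.010 with both high-background arrays out, -0.20 to 0.035 with 1 array left out. Mrps18a gave 0.051 with array weights, 0.045 with both high-background arrays out, -0.087 to 0.018 with 1 array left out. Mrps34 gave -0.016 with the covariate. Mrpl12 gave -0.0033 to 0.11 with 1 array left out. Mrps30 gave 0.010 with both high-background arrays out, -0.29 to 0.055 with 1 array left out. Mrps22 gave -0.063 to 0.097 with 1 array left out.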
